A study of Papio anubis with 12 samples.

Results

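The AU-rich element binding proteins TIA1 and ELAV, with their relatives and partners, were followed in the precentral gyrus of baboon neonates. A probe set counted as a member where the platform annotation gave it exactly 1 gene symbol and that symbol was TIA1, TIAL1, ELAVL1, ELAVL2, ELAVL3, ELAVL4, HNRNPD, ZFP36, ZFP36L1 or KHSRP. By this rule 42 of 54613 probe sets belonged to the 10 genes, with 7 for TIA1, 4 for TIAL1, 4 for ELAVL1, 2 for ELAVL2, 3 for ELAVL3, 4 for ELAVL4, 9 for HNRNPD, 1 for ZFP36, 4 for ZFP36L1 and 4 for KHSRP. Each of the 10 genes is also a protein coding gene in the RefSeq annotation of the baboon assembly Panubis1.0. No low values were filtered out, and 30 of the 42 probe sets had a mean signal above the median of all probe sets.

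RNA from 12 animals was read on HG-U133 Plus 2.0 arrays, with 4 animals on each formula and an array for every animal. The formulas were L3 with 1.00% docosahexaenoic acid (DHA) and 0.67% arachidonic acid (ARA), L with 0.33% DHA and 0.67% ARA, and C with neither. Since ARA is in both L3 and L, the formulas are not steps of 1 dose. All animals were fed for 12 weeks and were 83 to 87 days old, and 0 of the L3, 1 of the L and 2 of the C animals were male. The probes were designed on human transcripts, and nothing was measured of how well each matches the baboon RNA.

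AU-rich elements are stretches of A and U in the 3' untranslated region of many short-lived mRNAs, such as those of cytokines, growth factors and PTGS2, the enzyme known as COX-2. The proteins that bind them work against each other. ELAV proteins hold a message stable, ZFP36 proteins and KHSRP bring it to the decay machinery, and TIA1 and TIAL1 hold back its translation and gather stalled messages in stress granules. HNRNPD, also called AUF1, mostly favours decay. ELAVL2, ELAVL3 and ELAVL4 are neuronal proteins, while ELAVL1, known as HuR, is found in most cells.

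TIA1 was picked by the study from its difference between formulas on these same arrays, and the gene family was chosen from there. Only probe set 201450_s_at of the 7 is on the study's list of changed transcripts. The TIA1 differences are therefore a description, without a test, and TIA1 is left out of the counts of probe sets past a p threshold.

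On 201450_s_at the TIA1 signal was 275.2, 275.5, 353.9 and 120.4 on the L3 arrays, 135.5, 179.5, 242.2 and 162.5 on the L arrays and 134.2, 126.5, 114.2 and 182.9 on the C arrays. In deposited signal, 3 of the 4 L3 arrays lay above every C array and above every L array, and the other lay within the range of C. On the normalised log2 scale of the fit below, L replicate 3 (8.07) was above L3 replicates 1 (8.06) and 2 (8.05). The mean signals were 256.2 ± 97.8 in L3, 179.9 ± 45.3 in L and 139.4 ± 30.1 in C (SD, n = 4 each). After quantile normalisation of log2(signal + 16), the log2 difference was 0.62 in L3/C, 0.35 in L/C and 0.27 in L3/L, each with a standard error (SE) of 0.41. A positive value means higher in the formula named first, and each SE comes from the limma fit to all 12 arrays. L3/C and L/C share the 4 C arrays.

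On the normalised log2 scale, 1 of the other 6 TIA1 probe sets had its means in the same order, L3 above L above C, and 5 did not. That 1 is the brightest, 201446_s_at, which read 415.4, 706.4, 648.0 and 507.2 in L3, 528.2, 405.4, 658.2 and 526.4 in L and 630.5, 654.9, 233.8 and 436.2 in C. Its groups overlapped, with log2 differences of 0.22 in L3/C and 0.10 in L/C (SE 0.33). Probe set 201447_at read 233.6, 289.5, 115.5 and 103.8 in L3, 88.2, 254.8, 142.8 and 295.9 in L and 140.6, 96.4, 60.6 and 305.0 in C. The highest array was in C, and the log2 differences were 0.24 in L3/C and 0.45 in L/C (SE 0.56). Probe set 201448_at read 298.2, 466.6, 148.8 and 133.7 in L3, 113.0, 321.3, 233.9 and 59.7 in L and 251.2, 194.1, 142.8 and 109.6 in C. Here 2 of the 4 L3 arrays were above all C arrays, and the log2 differences were 0.32 in L3/C and -0.11 in L/C (SE 0.53).

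The remaining 3 TIA1 probe sets had lower means in L3 than in C. Probe set 201449_at read 222.1, 244.9, 35.7 and 174.3 in L3, 223.3, 144.7, 266.8 and 212.2 in L and 304.6, 246.2, 126.5 and 175.4 in C. One L3 array stood far below the other 3, which gave a log2 difference of -0.60 in L3/C (SE 0.49), and without that array, replicate 3, it was -0.07. Probe set 1554889_at read 15.8, 132.8, 70.0 and 10.4 in L3, 287.4, 18.9, 68.9 and 118.9 in L and 326.6, 70.8, 69.8 and 37.5 in C. Its arrays spanned a wide range within every formula, and the log2 difference was -1.04 in L3/C (SE 0.72). Probe set 1554890_a_at read 31.3, 154.7, 266.6 and 24.8 in L3, 214.4, 114.0, 161.8 and 166.8 in L and 329.3, 41.5, 63.9 and 79.5 in C. The 4 L arrays lay close together inside the range of both other formulas, and the log2 differences were -0.33 in L3/C and 0.71 in L/C (SE 0.67).

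**Figure D1:**
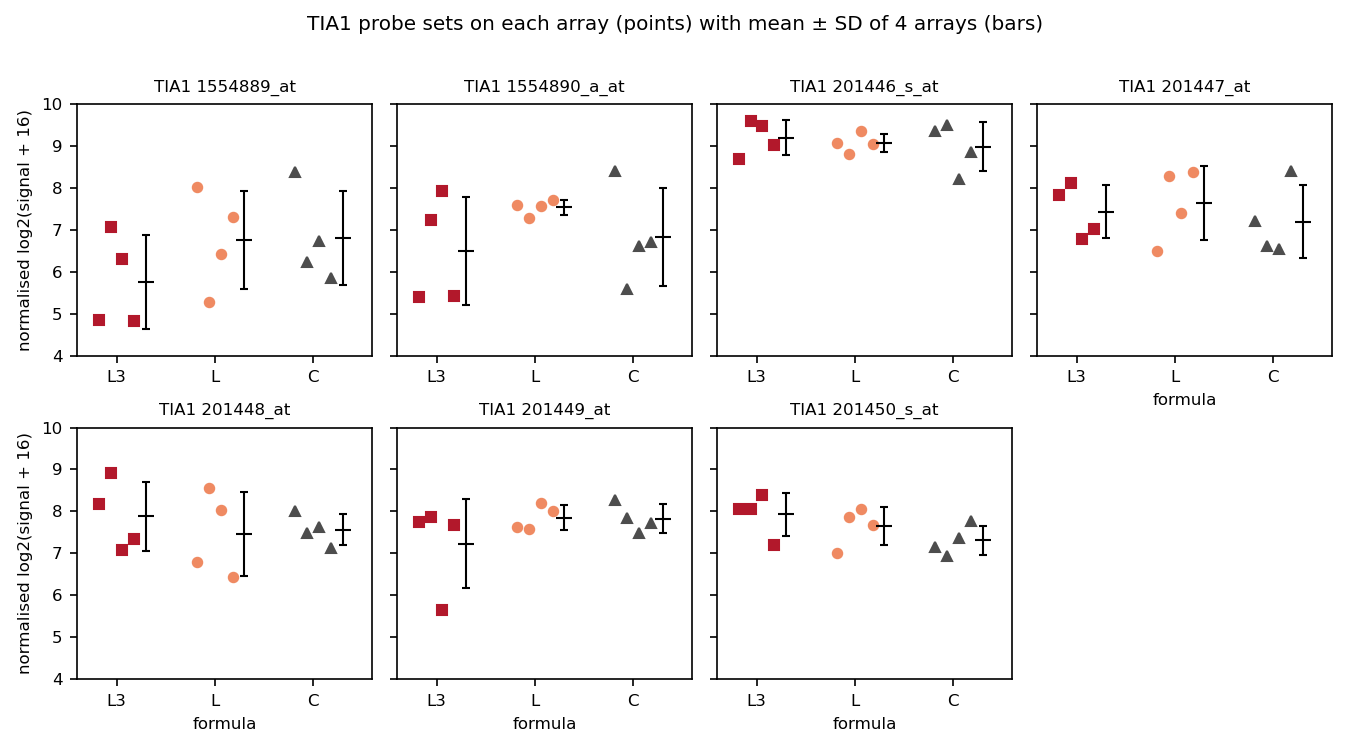
Normalised log2(signal + 16) of the 7 TIA1 probe sets by formula (L3, L and C from left to right). Points are arrays and bars show the mean ± SD of 4 arrays. The groups overlap in every panel, and the L3 mean is above the C mean in 4 of the 7.

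Counts of higher means here and below are on the normalised log2 scale unless another is named. The mean was higher in L3 than in C on 4 of the 7 TIA1 probe sets. It was higher in L than in C on 5, and higher in L3 than in L on 3 (2 with arrays centred on their median). Their median log2 differences were 0.22, 0.10 and -0.20 in these comparisons. For all 7 the ranges of the formulas overlapped in each comparison. In each of 28 alternative settings the differences of 201450_s_at kept their sign. L3/C lay between 0.46 and 1.02, L/C between 0.15 and 0.56 and L3/L between 0.01 and 0.73. The study picked this probe set on these same arrays, so a kept sign is no support for its difference. For the other 6 probe sets the sign of at least 1 comparison turned in some of the alternatives.

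The TIA1 probe sets were next set against each other over the 12 arrays. Over 21 pairs Pearson's r ran between -0.43 and 0.74 with a median of 0.11, and 13 pairs were positive. Against 201450_s_at the other 6 had r values of -0.43 (201449_at), -0.33 (1554889_at), 0.11 (201446_s_at), 0.21 (1554890_a_at), 0.30 (201448_at) and 0.51 (201447_at). The closest pair was 1554889_at and 1554890_a_at, which the annotation ties to the same GenBank record, with r = 0.74 (permutation p = 0.0070) and Spearman's rho = 0.73 (permutation p = 0.0098). The adjusted values over 91 pairs were 0.177 and 0.446, and r was 0.64 without the 2 arrays farthest from the median. These 91 pairs are all pairs of probe sets of the same gene among the members. Their median r was 0.10, and 0 of them had an adjusted permutation p under 0.05.

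**Figure D2:**
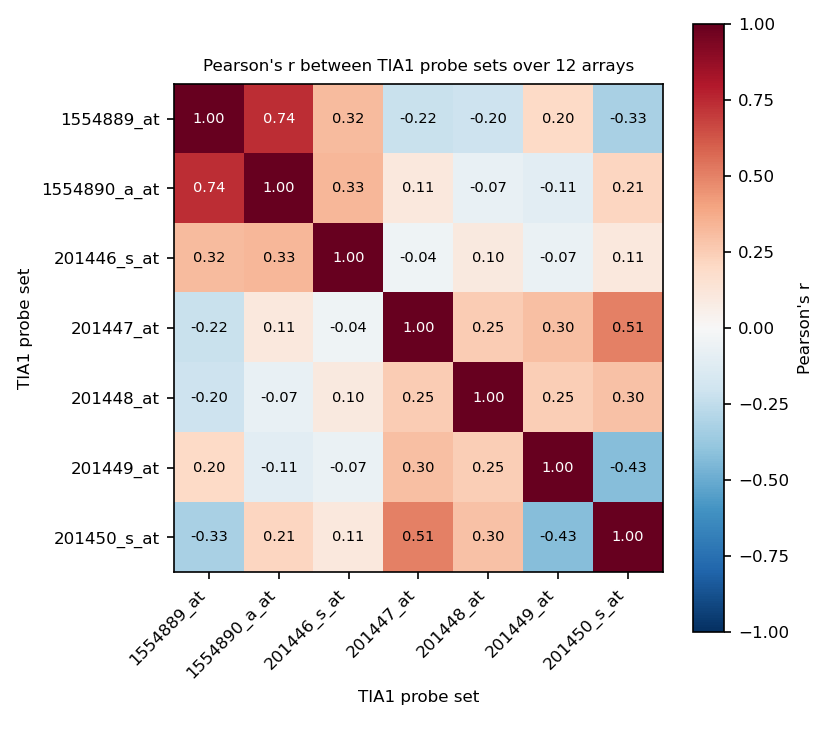
Pearson's r between the 7 TIA1 probe sets over 12 arrays, on a colour scale between -1 and 1. Most cells off the diagonal are pale, the closest pair has r = 0.74 and 201450_s_at with 201449_at has r = -0.43.

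Among 22068 other probe sets with 1 symbol and a mean above the median of all, those whose pattern over the 12 arrays was most like TIA1 201450_s_at were LATS2 223380_s_at (r = 0.93), CCNG1 208796_s_at (r = 0.89), HLA-DOA 217001_x_at (r = 0.87), LYVE1 and ACTR5 (r = 0.86 each). These were picked as the highest of all candidates and carry no test.

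The RNA of the arrays was uneven, which matters for how the members are read. The signal of ACTB, the beta actin control, at its 3' end over its 5' end measures how far labelling reached along the message. The log2 ratio was 5.98, 2.63, 1.86 and 0.17 on the L3 arrays, 3.42, 1.33, 0.10 and -0.15 on the L arrays and 3.57, 2.35, 1.86 and -0.03 on the C arrays. Thus 1 L3, 2 L and 1 C array had a ratio below 1, between -0.15 and 0.17, and the other 8 lay between 1.33 and 5.98. These 4 arrays also had the lowest mean log2 signal of the bacterial control probe sets, 10.8 to 11.3, against 11.8 to 13.7 on the other 8. The limit of 1 was set after the ratios were seen.

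On 3 member probe sets every one of these 4 arrays lay above each of the other 8. That is 7.14% of the 42, where 3.28% of all probe sets lay wholly above or below, and 2.44% above. The widest gap was that of ELAVL3 1555602_a_at, a probe set of the neuronal ELAV protein HuC. It read 11.9, 11, 18.6 and 544.0 in L3, 18.8, 9.4, 279.4 and 422.9 in L and 12.2, 29.1, 34 and 504.2 in C. Within each formula its arrays were thus either near the bottom of the scale or bright, and the mean log2 value was 8.79 on the 4 arrays and 4.99 on the other 8. ELAVL3 227612_at, the brightest probe set of the gene, did not divide the arrays in this way, with signals between 2661.1 and 6548.6 in L3, 2547.7 and 6442.3 in L and 3770.1 and 7614.7 in C.

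KHSRP 204371_s_at, a probe set of the KH-type decay factor KSRP, read 408.8 in L3, 290.5 and 438.3 in L and 462.7 in C on the 4 arrays with a low ratio, and between 70.1 and 182.9 on the other 8. The third, ELAVL2 208427_s_at, was between 970.0 and 1550.3 on the 4 arrays and between 107.7 and 717.3 on the other 8. On TIA1 201450_s_at the sets overlapped, with 120.4 to 242.2 on the 4 arrays and 114.2 to 353.9 on the other 8. The highest signals, 275.2, 275.5 and 353.9, were those of the L3 arrays among the 8. The L3 array with a low ratio read 120.4. Among the 8, with 3 arrays each of L3 and C and 2 of L, the log2 difference of TIA1 201450_s_at in L3/C was 1.02. That was the highest of the 28 alternatives for L3/C. In L3/L it was 0.73 among these 8, and 0.01 among the 9 arrays left without the highest ratio of each group. The part of RNA quality in the L3 values of TIA1 was not tested.

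**Figure D3:**
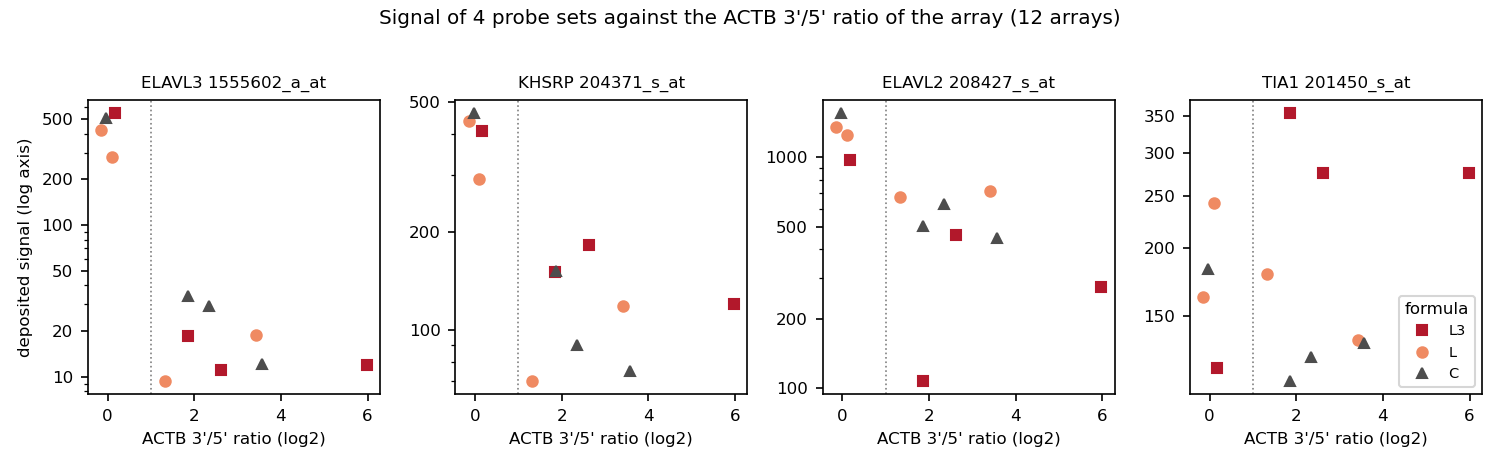
Deposited signal (log axis) of 4 probe sets against the log2 ACTB 3'/5' ratio of the array, with 1 point per array, formulas by colour and shape, and a dotted line at a ratio of 1. ELAVL3 1555602_a_at, ELAVL2 208427_s_at and KHSRP 204371_s_at are high on all 4 arrays left of the line, and TIA1 201450_s_at is not. The highest TIA1 points are L3 arrays right of the line.

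The question for the other members was whether any differed between formulas beyond the spread of the arrays. Of the 35 probe sets of the 9 genes other than TIA1, limma gave an unadjusted p under 0.05 for 0 in L3/C, where 4.26% of all probe sets reached it, for 1 in L/C, where 2.42% did, and for 3 in L3/L, where 5.4% did. The 1 in L/C was lower, as were 1.27% of all probe sets. Of the 3 in L3/L, 1 was higher and 2 were lower, where 2.96% and 2.44% of all were. Among the 3 formulas together 2 of 35 had such a p, where 3.67% of all did. After Benjamini-Hochberg adjustment over all probe sets, 0 of the 35 and 0 of all 54613 had an adjusted p under 0.05 in limma, and the lowest adjusted p of a member was 0.891.

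ZFP36L1 213284_at had the lowest p of the 35. ZFP36L1 is a zinc finger protein that recruits the enzymes that take off the poly(A) tail. It read 159.9, 42.8, 32.5 and 86.2 in L3, 23.0, 25.0, 12.6 and 40.3 in L and 105.0, 131.8, 85.3 and 107.3 in C. All 4 L arrays were below all 4 C arrays, and L3 spanned both. It was the only member whose ranges did not overlap in L/C, where 2.1% of all probe sets did not and 1.17% lay below. In L3/C and in L3/L the count was 0, where 2.21% and 2.66% did not overlap. The log2 difference in L/C was -1.60 (SE 0.48), with p = 0.0044 in limma (adjusted p = 1.00) and an exact permutation p of 0.0286, the smallest that 4 against 4 arrays can give. It lay between -1.81 and -1.44 when any 1 array was left out. The probe set is dim, with a mean below the median of all probe sets, and the L signals are near the bottom of the scale, so the size depends on the pseudocount (-2.12 with 1 in place of 16).

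The other 3 probe sets of ZFP36L1 did not show this. The brightest, 211962_s_at, averaged 815.1 ± 218 in L3, 833.6 ± 292 in L and 627.5 ± 194 in C (SD, n = 4 each), with a log2 difference of 0.50 in L3/C and 0.33 in L/C (SE 0.35). For 211965_at and 213277_at the log2 differences in L3/C were 0.24 (SE 0.42) and 0.32 (SE 0.67), and those in L/C were -0.12 and -0.73. All 4 ZFP36L1 probe sets had higher means in L3 than in L, against 3 of 4 as deposited without further normalisation or with arrays centred on their median. ZFP36 itself, also called tristetraprolin, has 1 probe set, which read 82.4, 120.9, 64.0 and 121.1 in L3, 107.0, 123.3, 116.0 and 104.4 in L and 136.0, 146.5, 292.0 and 71.1 in C. The highest value was in C, and the lowest C value, 71.1, was below all L values. The log2 difference in L3/C was -0.61 (SE 0.49, exact permutation p = 0.229).

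ELAVL2 208427_s_at, of the neuronal protein HuB, read 274.0, 463.0, 107.7 and 970.0 in L3, 717.3, 675.5, 1251.3 and 1358.0 in L and 445.7, 630.6, 505.5 and 1550.3 in C. Of the L3 arrays 3 were below all L arrays. The log2 difference in L3/L was -1.50 (SE 0.53, limma p = 0.0115, exact permutation p = 0.0857). This probe set was among those high on the 4 arrays with a low ACTB ratio, of which L holds 2 and L3 holds 1. With the ACTB ratio as a covariate the difference was -1.15, with the bacterial controls as a covariate -0.85, and among the 8 arrays with a ratio above 1 it was -1.64. Without L3 replicate 3 it was -0.94. The second ELAVL2 probe set, 228260_at, averaged 2456 ± 287 in L3, 2813 ± 634 in L and 2543 ± 832 in C (SD, n = 4 each) and had a log2 difference of 0.03 in L3/L (SE 0.18).

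HNRNPD 221480_at read 462.7, 661.1, 400.7 and 318.1 in L3, 416.0, 250.7, 161.6 and 141.8 in L and 252.7, 585.3, 439.8 and 322.8 in C. Of the L arrays 3 were below all L3 arrays. The log2 difference in L3/L was 0.86 (SE 0.38, limma p = 0.0384, exact permutation p = 0.0857), and among the 8 arrays with an ACTB ratio above 1 it was 0.55. Of the 9 probe sets of HNRNPD, means were higher in L3 than in L for 7, higher in L3 than in C for 7 and higher in L than in C for 3, against 5, 5 and 4 with arrays centred on their median. The brightest, 221481_x_at, averaged 1967 ± 142 in L3, 1974 ± 754 in L and 1926 ± 391 in C (SD, n = 4 each), and for 0 of the 9 was the unadjusted limma p in L3/C or L/C under 0.05. HNRNPD 227744_s_at had the largest L3/C difference of all members, -1.07 (SE 0.59, limma p = 0.0861, exact permutation p = 0.171).

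KHSRP 212303_x_at read 102.2, 151.8, 236.3 and 740.9 in L3, 500.8, 424.4, 806.2 and 623.5 in L and 310.2, 83.0, 621.2 and 615.4 in C. Of the L3 arrays 3 were below all L arrays, and the L3 array with a low ACTB ratio was within them. The log2 difference in L3/L was -1.38 (SE 0.62, limma p = 0.0408, exact permutation p = 0.114), and it was -0.85 with the ACTB ratio and -0.65 with the bacterial controls as a covariate. Among the 8 arrays with a ratio above 1 it was -1.68. The part of RNA quality in the ELAVL2, HNRNPD and KHSRP differences was not tested beyond these values. KHSRP 204372_s_at, the brightest, averaged 598.0 ± 143 in L3, 508.9 ± 336 in L and 679.0 ± 145 in C (SD, n = 4 each), and its log2 difference in L3/L was 0.71 (SE 0.53).

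**Figure D4:**
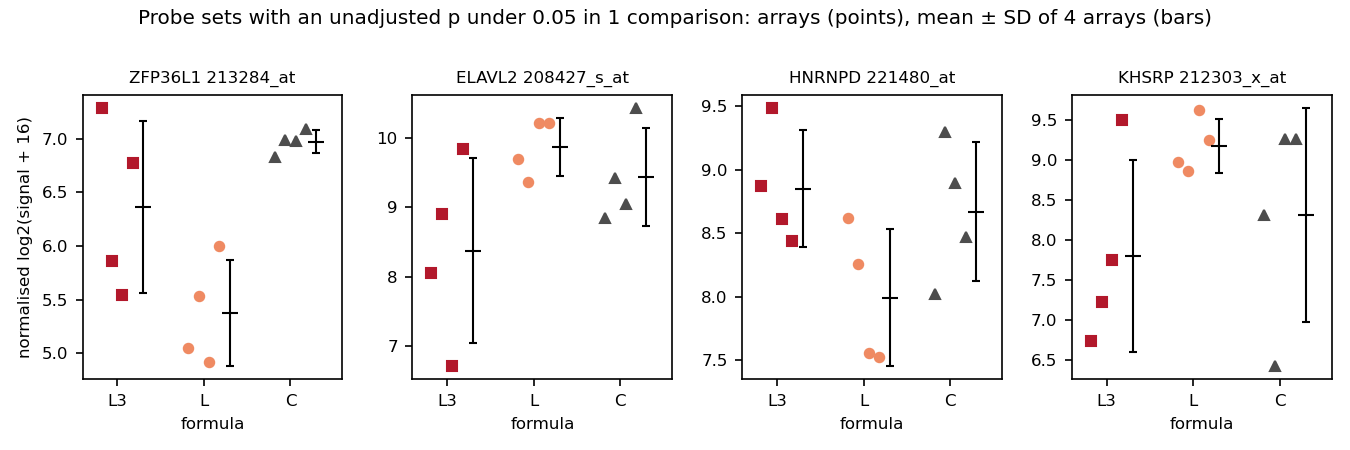
Normalised log2(signal + 16) of the 4 probe sets with an unadjusted limma p under 0.05 in L/C (ZFP36L1 213284_at) or L3/L (the other 3), by formula, with L3, L and C from left to right. Points are arrays and bars the mean ± SD of 4 arrays. Only ZFP36L1 213284_at has groups that do not overlap, L below C.

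TIAL1, the closest relative of TIA1, had higher means in L3 than in C on all 4 probe sets, with log2 differences between 0.13 and 0.64, but on 2 of 4 with arrays centred on their median, between -0.04 and 0.54. None of the 4 had an unadjusted p under 0.05. Its brightest probe set, 202406_s_at, read 1175.6, 592.8, 845.6 and 1110.8 in L3, 960.2, 867.8, 905.1 and 883.9 in L and 1193.7, 742.3, 866.6 and 586.8 in C. The highest and the lowest signal were both in C, but after normalisation the highest value was in L3. The log2 difference in L3/C was 0.22 (SE 0.29, exact permutation p = 0.514). The difference of 0.64 belonged to 202405_at, where C replicate 2 read 25.0 and the other 11 arrays lay between 133.4 and 372.8. In L3/L the largest TIAL1 difference was that of 230350_at, 0.70 (SE 0.34, limma p = 0.0532, exact permutation p = 0.0857).

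Of the 4 ELAVL1 probe sets, means were higher in L3 than in C for 1, higher in L than in C for 3 and higher in L3 than in L for 0, against 2, 3 and 1 without further normalisation. The brightest, 201726_at, read 283.8, 581.2, 330.4 and 399.6 in L3, 543.8, 577.8, 419.6 and 348.7 in L and 120.8, 376.8, 499.0 and 381.2 in C. The 3 formulas overlapped, with a log2 difference of 0.28 in L3/C and 0.61 in L/C (SE 0.42, exact permutation p = 0.657 and 0.2). ELAVL3 227612_at averaged 4435 ± 1624 in L3, 4313 ± 1616 in L and 5462 ± 1595 in C (SD, n = 4 each), with log2 differences of -0.08 in L3/C and -0.33 in L/C (SE 0.21). For ELAVL4, the protein HuD, the brightest probe set 238073_at averaged 2464 ± 566 in L3, 2609 ± 408 in L and 2666 ± 162 in C (SD, n = 4 each), with log2 differences of 0.10 and -0.01 (SE 0.30). Its 206051_at had 1 array, L replicate 1, at 314.3, while the other 11 lay between 1041.1 and 2874.6. For 0 of the 9 genes did the brightest probe set have an unadjusted p under 0.05 in any of the 3 comparisons, so no order of the formulas was beyond the spread of the arrays on these probe sets.

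**Figure D5:**
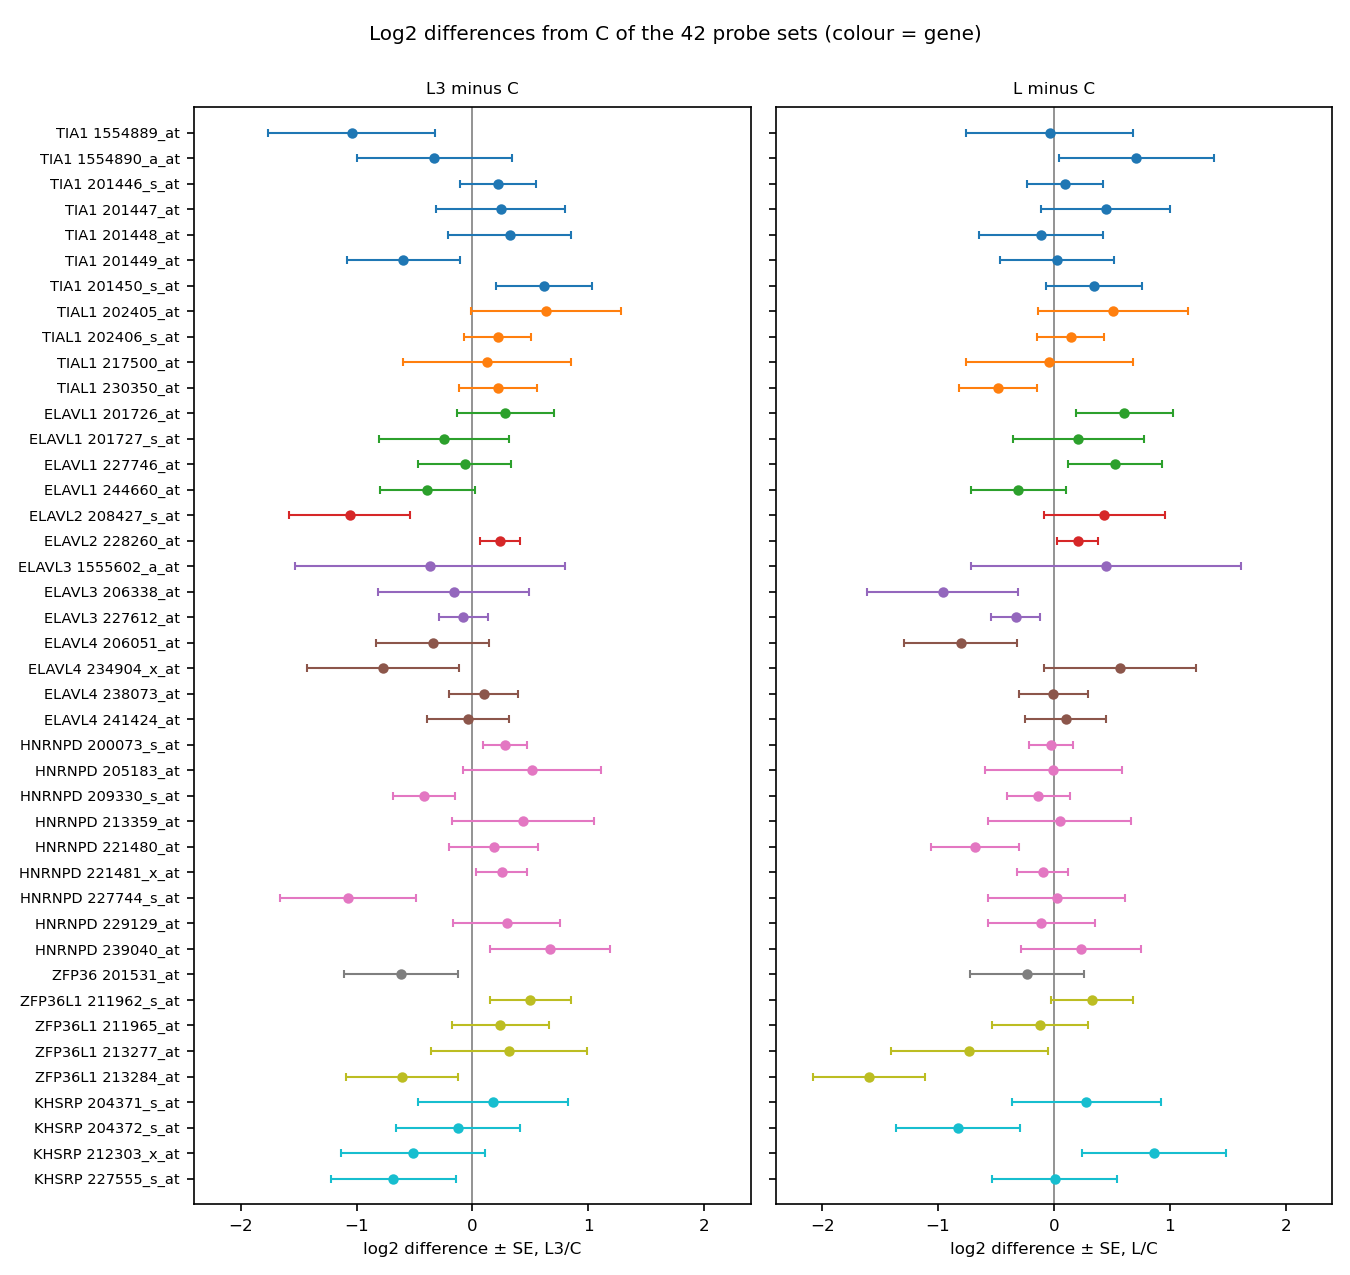
Log2 differences from C of all 42 member probe sets in L3 (left) and in L (right), as points with SE bars, coloured by gene. Points of the same gene fall on both sides of 0 for most genes, and all 4 TIAL1 points lie above 0 in L3 under quantile normalisation (2 of 4 with arrays centred on their median).

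Over all 42 probe sets the median log2 difference was 0.11 in L3/C, 0.01 in L/C and 0.11 in L3/L, where the median of all probe sets was 0.00, -0.01 and 0.01. Means were higher for 22, 22 and 24 of the 42, that is near the 49.9%, 49.1% and 50.5% of all probe sets. With arrays centred on their median in place of quantile normalisation, 16 were higher in L3/C and 14 in L3/L, and that scaling put the median of all probe sets at -0.12 and -0.13. A change of 2-fold or more in the fitted difference was seen for 3 members in L3/C, 1 in L/C and 7 in L3/L, where 7.20%, 4.87% and 8.81% of all probe sets had one. The median SE was 0.49 for members and 0.51 for all probe sets.

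PTGS2, the message of COX-2 and a known target of TIA1 and HuR, was read next to its regulators. Its brightest probe set, 204748_at, averaged 191.8 ± 142 in L3, 163.6 ± 34.8 in L and 138.3 ± 17.8 in C (SD, n = 4 each). The log2 difference was -0.11 in L3/C and 0.24 in L/C (SE 0.59), with an exact permutation p of 0.971 and 0.2. The sign in L3/C rested on L3 replicate 1, at a signal of 22.1 against 133.1 to 338.4 on the other 3 L3 arrays and 112.6 to 152.1 in C, and without it the difference was 0.59 (SE 0.43). Its second probe set had 0.12 and -0.22 (SE 0.54).

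Other genes of the pathway were read from lists, with the brightest probe set of each gene. Of 15 further proteins that read AU-rich or related elements, the mean was higher in L3 than in C for 8 and higher in L than in C for 6. Of 30 decay factors, these counts were 17 and 15. Of 18 measured stress granule proteins they were 6 and 10, and of 29 measured messages with AU-rich elements they were 15 and 14. In each of these lists 0 genes had an unadjusted p under 0.05 in limma in L3/C or L/C, where 4.26% and 2.42% of all probe sets did. The list medians in L3/C and L/C lay between -0.04 and 0.04. In L3/L 1 decay factor was higher at such a p and 0 genes of the other lists had one, where 5.4% of all probe sets did.

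All 10 neuronal markers were above the median of all probe sets. That is no test of the tissue label, since each gene was read on its brightest probe set. Of the 30 decay factors, 29 were above that median too. Of these 10 neuronal markers, the mean was higher in L3 than in C for 4 and higher in L than in C for 4. With arrays centred on their median, 1 of the 10 was higher in L3 than in C. The summed signal of the neuronal markers was 86113.9 to 104059 in L3, 71404.0 to 132432 in L and 88872.8 to 132430 in C. Of 5 microglial markers, the mean was higher in L3 than in C for 1 and higher in L than in C for all 5, and the sum was 1551.9 to 3380.6 in L3, 1722.0 to 5989.4 in L and 1472.1 to 3631.2 in C. Of 5 meningeal markers 4 had a higher mean in L3 and 5 in L than in C, with sums of 3035.6 to 14967.4 in L3, 2928.1 to 11507.6 in L and 2111.9 to 6617.4 in C. Of 4 measured oligodendrocyte markers, 0 had a higher mean in L3 than in C and 3 in L than in C, with sums of 3689.9 to 11067.1 in L3, 5055.9 to 12769.4 in L and 4539.1 to 13326.5 in C. None of the 4 was higher in L3 than in L, and MOG, a myelin protein, had a log2 difference of -1.86 (SE 0.72) there, with an exact permutation p of 0.0857. Astrocyte markers were higher in L3 than in C for 4 of 5, but for 1 of 5 with arrays centred on their median. The markers with an unadjusted limma p under 0.05 against C were C1QB of microglia in L/C, with a log2 difference of 2.00 (SE 0.60), and in L3/C the neuronal MAP2 (0.58, SE 0.18), the astrocytic AQP4 (0.63, SE 0.26) and the meningeal DCN (0.93, SE 0.41). On the normalised scale C1QB was the only 1 of these 4 whose groups did not overlap, where 2.1% of all probe sets did not overlap in L/C. In L3/L the markers with an unadjusted limma p under 0.05 were MOG, AIF1 of microglia (-1.41, SE 0.63), the meningeal COL3A1 (-1.76, SE 0.82) and MAP2 (0.40, SE 0.18). Of all probe sets 5.4% had such a p there. All 5 microglial markers were lower in L3 than in L. Higher in L3 than in L were 4 of 5 meningeal markers (2 of 5 with arrays centred on their median) and 4 of 10 neuronal markers. None of the markers had an adjusted p under 0.05. Their part in the members' differences was not tested. In tissue RNA, fewer cells of a type and less RNA per cell cannot be told apart.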

How the data were processed

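The authors deposited 1 table with the MAS5 signal of 54675 probe sets on each of 12 arrays, a linear intensity. Each array was scaled to a trimmed mean near 250.0. The methods describe RMA values, which these are not. Without the 62 controls, log2(signal + 16) was quantile normalised, and limma fitted 3 group means with a variance trend. Benjamini-Hochberg adjustment of p ran over all 54613 probe sets. Exact permutation tests were two-sided, on 4 against 4 arrays. Correlations used 100000 permutations. Each array is 1 animal, so the spread holds differences between animals together with those of RNA quality and array processing. These cannot be told apart. The number of arrays limits the precision.

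Genes were named from the platform annotation, by which 41091 probe sets have 1 symbol, 1801 several and 11721 none. The members and lists were chosen with earlier results of these data known. Named were all TIA1 probe sets, others with an unadjusted p under 0.05, the brightest of each gene, PTGS2, up to 3 genes with such a p in L/C or L3/C per list of other readers, decay factors, stress granule proteins and targets (there were 0), and the 5 patterns most like TIA1. Probe sets singled out beyond this (those high on arrays with a low ACTB ratio, 1 each of HNRNPD, TIAL1 and ELAVL4, and the named cell type markers) were chosen after their values were seen.

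Alternatives were other scalings, a pseudocount of 1, brighter probe sets, no variance trend, the 8 arrays compared, covariates (sex, age, bacterial controls, ACTB ratio), females only, a replicate block, array weights, unmoderated tests, fewer probe sets per gene and each array left out. After seeing the data, 2 subsets by ACTB ratio were added and TIA1 was left out of the counts. The fit was tested on simulated data. Software was Python 3.11.15 with pandas 2.3.3 and scipy 1.17.1, and R 4.3.3 with limma 3.58.1.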

Additional observations from a re-analysis of the deposited data

Results flagged for a closer look

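In 9 of 126 groups of 4 arrays, 1 array stood apart from the other 3 by Dixon's 95% criterion, which chance meets in about 1 of 20 groups. Values are normalised log2(signal + 16). On TIA1 201449_at L3 replicate 3 was at 5.64, with the others between 7.68 and 7.87. On TIAL1 202405_at C replicate 2 was at 5.11, with the others between 8.20 and 8.63. On ELAVL1 227746_at the same C array was at 6.97, with the others between 8.0 and 8.17. On ELAVL3 1555602_a_at L3 replicate 4 was high at 9.10, with the others between 4.66 and 5.04, and it is the L3 array with the lowest ACTB ratio. On ELAVL4 206051_at L replicate 1 was at 8.15, with the others between 10.7 and 11.2. On ELAVL4 241424_at L replicate 2 was high at 5.82, with the others between 5.27 and 5.33. On HNRNPD 227744_s_at L replicate 3 was at 6.87, with the others between 7.94 and 8.12, and C replicate 1 was at 6.35, with the others between 8.01 and 8.34. On HNRNPD 229129_at L replicate 2 was at 6.60, with the others between 7.75 and 7.78.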

How the results depend on the processing

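The 4 named differences with an unadjusted p under 0.05 kept their sign in each of at least 27 alternatives, and an adjusted p under 0.05 was reached in 0 of them. They were picked for a low p on these same arrays, so a kept sign is no further support. With the age covariate the unadjusted limma p was 0.0986 for ELAVL2 208427_s_at and 0.186 for HNRNPD 221480_at. With the bacterial controls it was 0.247 for KHSRP 212303_x_at. For ZFP36L1 213284_at it was at most 0.0437, among the 8 arrays with an ACTB ratio above 1. Counts are of probe sets of the 9 genes other than TIA1 at an unadjusted p under 0.05, and differ between settings with fewer arrays or probe sets by construction. For other settings the cause was not tested. The share of all probe sets in the fit with such a p stands in brackets. In L3/C the count was 0 (4.26%). It was 1 with the sex covariate (3.22%), among females only (2.98%), with the replicate block (5.19%) and in the methods' unmoderated test (4.29%). It was also 1 among the 8 arrays with an ACTB ratio above 1 (4.46%). Among the 9 arrays left without the highest ratio of each group it was 2 (5.2%). In L/C it was 1 (2.42%), against 0 among brighter probe sets (1.73%) or with 1 probe set per gene. It was 2 among females only (2.95%), with the bacterial controls as a covariate (3.12%), with array weights (5.05%) and among those 8 arrays (2.77%). With the age (3.6%) or ACTB covariate (3.07%) and among those 9 arrays (2.6%) it was 3. In L3/L it was 3 (5.4%), against 5 with a pseudocount of 1 (5.35%) or the unmoderated test (5.23%). It was 1 with the age (5.03%) or bacterial control covariate (4.01%) or without _s_at and _x_at probe sets, and 0 with 1 probe set per gene. Among the 3 formulas it was 2 (3.67%), against 0 with 1 probe set per gene. It was 1 among brighter probe sets (2.91%), with no variance trend (4.21%) and with the sex (2.91%) or bacterial control covariate (3.12%). It was also 1 among females only (2.88%), in the unmoderated test (3.89%) and without _s_at and _x_at probe sets. With each array left out in turn these counts were 0 to 2 in L3/C, 1 to 2 in L/C, 2 to 6 in L3/L and 0 to 4 among the 3. Without L3 replicate 4, the L3 array with a low ACTB ratio, they were 2, 1, 6 and 4, but the share of all probe sets was then also larger, 7.9%, 2.44%, 9.95% and 6.82%, against 4.26%, 2.42%, 5.4% and 3.67% with all arrays. The median over 42 probe sets was -0.01 to 0.11 in L3/C, -0.03 to 0.16 in L/C and -0.06 to 0.15 in L3/L with an array left out, and -0.14 in L3/C and -0.17 in L3/L with arrays centred on their median. The sample records do not say what the replicate numbers mark. The correlation of same-numbered arrays ran between -0.09 and 0.33 over 12 pairs, between 0.14 and 0.33 for numbers 1 and 4 and between -0.09 and 0.06 for numbers 2 and 3, and in 12 of 24 cases an array correlated best with its own number in another formula. In all 3 formulas the arrays ranked by ACTB ratio in the order of their numbers. As the pairs under numbers 2 and 3 did not correlate, the numbers were not used as pairs. With the replicate block the p in L3/L was 0.0029 for ELAVL2 208427_s_at, lower in L3 under 4 of 4 numbers, and 0.0282 for HNRNPD 221480_at, higher under 4 of 4, and apart from the 1 in L3/C above it moved no count by more than 1.5 times. Of 125 other differences given as values, 14 moved by over 1 SD in some alternative.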
